A study of Mus musculus with 11 samples.

Results

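The genes of the T cell receptor complex and its coreceptors were followed in whole mouse ovary across 3 ages. They were taken as the rows of the gene count table whose symbol was Cd3d, Cd3e, Cd3g, Cd247, Trac, Trbc1, Trbc2, Cd4, Cd8a or Cd8b1. All 10 were found among 54232 genes, and all 10 were among the 20331 that passed the filter on low counts. The samples were ovaries of mice labelled only as WT, sequenced as bulk RNA. The 2 month and 18 month groups had 4 libraries each and the 24 month group had 3. The series describes these ages as reproductively young, old and past reproduction. The labels name the tissue as ovary and give no treatment, strain or sorting step. The labels do not say whether a library came from 1 animal or from a pool. If they were not separate animals, the spread behind each p-value may be technical. Library names carried 22 months for the 24 month group and 8 weeks for the 2 month group.

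The T cell receptor is a pair of chains that binds antigen, either alpha with beta or gamma with delta, built from rearranged variable segments joined to a constant region. The chains have almost no tail inside the cell and signal through the CD3 delta, epsilon and gamma subunits and the zeta chain, whose tails the kinase Lck phosphorylates and Zap70 then binds. CD4 and CD8 are the coreceptors that bind MHC class II and class I beside the receptor and bring Lck to it. In the ovary, T cells are part of a small leukocyte population among follicles, corpora lutea and stroma.

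Libraries held 26061630 to 33407509 counted reads, apart from 18 month replicate 3 (5231724) and 18 month replicate 4 (8892915). The counts of replicates 3 and 4 differed by about counting noise (chi-square of 1.10 per gene over 17173 genes, where the next most similar pair had 28.7), so they were summed into 1 sample, called 18 month replicate 3 below. All values therefore rest on 4, 3 and 3 samples. Ovarian genes were present throughout: none of 11 genes of granulosa cells, theca cells and oocytes was at 0 in any sample. Levels are given as CPM (reads per 1000000 counted reads) after TMM scaling, and a gene is said to be higher or lower where edgeR's quasi-likelihood test gave an adjusted p under 0.05 over all tested genes.

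The constant regions of the beta chain are shown first, because counts of Trbc1 and Trbc2 depend on how reads are placed between them. Over their first coding exon of 375 bases they differed at 1 base, C260A, counted from 1 at the exon's 5′ end with the Trbc1 base first. The sequences below are positions 201 to 300 of that exon, on the + strand of mm10 at chr6:41538418-41538517 for Trbc1 and chr6:41546930-41547029 for Trbc2, with the differing base in capitals.
Trbc1: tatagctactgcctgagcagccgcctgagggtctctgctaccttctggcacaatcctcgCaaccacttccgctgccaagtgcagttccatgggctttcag
Trbc2: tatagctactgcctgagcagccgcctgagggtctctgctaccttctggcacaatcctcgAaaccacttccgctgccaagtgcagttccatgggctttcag

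Of the distinct 50-base windows in the annotated transcripts of Trbc1, 40.5% occurred unchanged in Trbc2, and 44.0% of those of Trbc2 occurred in Trbc1. The level of each gene, and their ratio, are uncertain for this reason. No 50-base window was shared between Cd3d and Cd3g, between Cd8a and Cd8b1, or between Trac and Trdc.

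The promoters of 5 of the 10 genes were in the RefSeq promoter table (GRCm38.p6, the patch release of mm10). Those of Cd3g, Cd3d and Cd8a are printed because Cd3g and Cd3d start 1355 bases apart, point away from each other and moved together, while Cd8a moved less. Each is the 250 bases before the annotated start, written on the gene's own strand. Capitals mark, on either strand, GGAAG (core letters of a site for ETS factors), CTTTGA (core of a TCF site) and AGATAA (core of a GATA site), families that act in T cell gene control.
Cd3g, chr9:44980432-44980681, - strand: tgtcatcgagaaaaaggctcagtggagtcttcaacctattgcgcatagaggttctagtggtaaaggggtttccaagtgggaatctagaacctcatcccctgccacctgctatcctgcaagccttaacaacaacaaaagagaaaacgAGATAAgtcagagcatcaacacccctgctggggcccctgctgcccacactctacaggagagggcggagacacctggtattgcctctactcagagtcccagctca
Cd3d, chr9:44981536-44981785, + strand: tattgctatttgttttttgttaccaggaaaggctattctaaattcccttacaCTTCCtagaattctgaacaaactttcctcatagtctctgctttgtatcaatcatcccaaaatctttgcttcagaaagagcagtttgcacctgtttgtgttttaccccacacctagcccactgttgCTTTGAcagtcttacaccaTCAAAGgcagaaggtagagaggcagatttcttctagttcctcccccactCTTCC
Cd8a, chr6:71373177-71373426, + strand: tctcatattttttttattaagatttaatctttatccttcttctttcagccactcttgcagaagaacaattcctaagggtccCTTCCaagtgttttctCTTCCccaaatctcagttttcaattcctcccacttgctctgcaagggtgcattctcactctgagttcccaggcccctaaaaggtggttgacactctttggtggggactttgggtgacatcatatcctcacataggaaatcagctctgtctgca

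GGAAG occurred 2 times before Cd3d and 2 times before Cd8a, CTTTGA 2 times before Cd3d and AGATAA 1 time before Cd3g. TGTGGT, the core of RUNX sites, was also searched on both strands and was in none of the 5 windows. These motifs were in 64.07%, 13.83%, 9.988% and 14.05% of 32851 promoter windows of the same length, respectively. No matches overlapped in the printed windows. The matches describe these letters only.

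At 18 months, 8 of the 10 genes were higher than at 2 months and none was lower, against 6.04% of all tested genes higher and 5.51% lower. At 24 months 9 of 10 were higher than at 2 months and none was lower, against 19.2% and 15.8% of all tested genes. No member was called between 24 and 18 months (edgeR's quasi-likelihood test), where 0.00492% of tested genes were called in either direction. In that comparison 0 members had an unadjusted p under 0.05, limma-voom called 0, and DESeq2 called 0 of the 9 to which it gave an adjusted p, leaving out Cd8b1. Over all 20331 tested genes DESeq2 called 79 higher and 115 lower there, and limma-voom called 1 higher and 0 lower. Of these genes 2108 had an unadjusted edgeR p under 0.05 in that comparison. The median log2 fold change over the members was 2.29 at 18 months and 2.26 at 24 months against 2 months, where the median over all tested genes was 0.0073 and 0.033. In bulk tissue, more cells of a type and more RNA per cell cannot be told apart. Both comparisons with 2 months use the same 4 young samples.

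**Figure D1:**
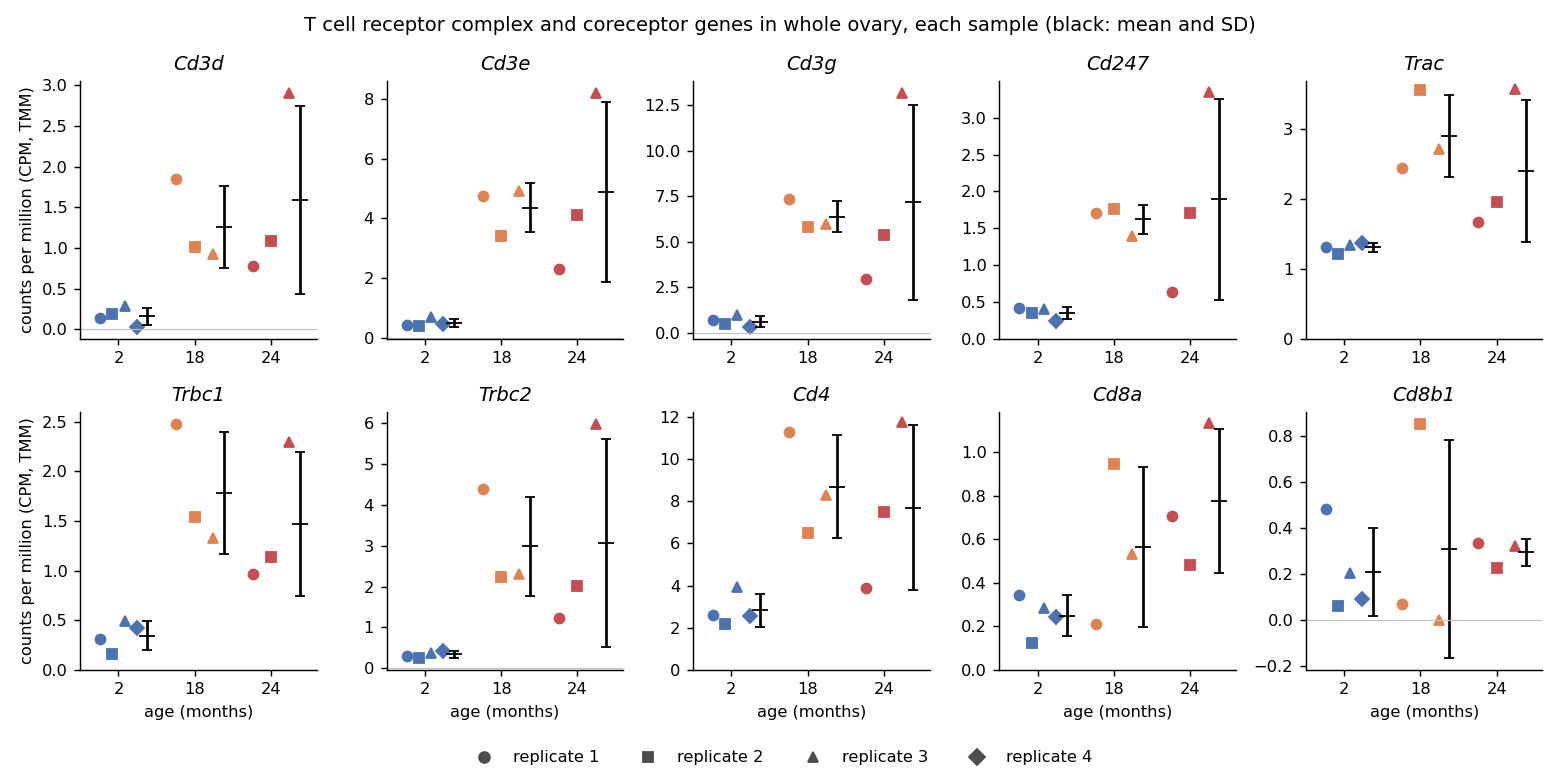
CPM (TMM scaling) of the 10 genes in each sample against age in months, with 1 symbol per replicate and the mean and SD of each age in black. Each panel has its own vertical scale. The 3 CD3 chains lie under 1 CPM in all 4 samples at 2 months, 24 month replicate 3 is the highest sample of its age in every panel but Cd8b1, and the Cd8b1 points of the 3 ages overlap.

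The CD3 chains, with Trbc2, had the highest fold changes of the members. Cd3e (ENSMUSG00000032093, CD3 epsilon, which pairs with delta and with gamma and is needed for assembly of the receptor) lies at chr9:44998740-45009627 on the - strand. It was at 0.448, 0.404, 0.690 and 0.457 CPM in 2 month replicates 1 to 4. At 18 months it was at 4.75, 3.41 and 4.90 CPM, and at 24 months at 2.31, 4.13 and 8.20 CPM. All 6 older samples lay above all 4 young ones, and the 24 month samples spread more widely than the 18 month samples. Cd3e was 8.68-fold higher at 18 months (log2 3.12, SE 0.424, edgeR adjusted p = 0.00918) and 9.76-fold higher at 24 months (log2 3.29, SE 0.424, adjusted p = 0.00208).

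Cd3g (ENSMUSG00000002033, CD3 gamma, a partner of epsilon in the complex) lies at chr9:44969572-44980431 on the - strand. Its levels were 0.724, 0.497, 0.975 and 0.335 CPM at 2 months, 7.37, 5.80 and 5.96 CPM at 18 months and 2.99, 5.35 and 13.2 CPM at 24 months. The lowest older sample, 24 month replicate 1, was again above the highest young one. Cd3g had the largest fold change of the 10 genes at both ages, with 10.1-fold at 18 months (log2 3.34, SE 0.518, edgeR adjusted p = 0.0119) and 11.4-fold at 24 months (log2 3.51, SE 0.519, adjusted p = 0.00273). Cd3d (ENSMUSG00000032094, CD3 delta, the other partner of epsilon) lies beside it at chr9:44981786-44987339 on the + strand. It was the least counted of the 3, with 4, 6, 7 and 1 reads in the young samples, 52, 32 and 14 at 18 months and 21, 38 and 100 at 24 months. The groups did not overlap in CPM either, and Cd3d rose by 2.99 on the log2 scale at 18 months (SE 0.645, edgeR adjusted p = 0.0227) and by 3.32 at 24 months (SE 0.639, adjusted p = 0.00592).

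Cd247 (ENSMUSG00000005763, the zeta chain, a signalling subunit that NK cells also use) lies at chr1:165788681-165877277 on the + strand. It was at 0.414, 0.342, 0.406 and 0.244 CPM at 2 months, 1.70, 1.77 and 1.39 CPM at 18 months and 0.634, 1.71 and 3.34 CPM at 24 months. Its groups did not overlap, and its fold changes of 4.61 at 18 months (log2 2.20, SE 0.489, edgeR adjusted p = 0.0239) and 5.39 at 24 months (log2 2.43, SE 0.485, adjusted p = 0.00663) were below those of the CD3 chains. Differences in fold change between members were not tested. Exons of Cd247 overlap the annotated spans, introns included, of Gm16565 on the same strand and of Pou2f1 on the other. Gm16565 was at 0.298 ± 0.157 CPM (SD, n = 4) at 2 months, 0.266 ± 0.0602 CPM (n = 3) at 18 months and 0.197 ± 0.0887 CPM (n = 3) at 24 months. The span of Pou2f1 touches 13 exon entries of Cd247, pooled over its annotated transcripts. Whether exons of the other gene overlap exons of Cd247 was not examined. Pou2f1 was counted far more than Cd247 and was at 23.1 ± 3.32, 32.6 ± 5.11 and 35.4 ± 5.57 CPM at the 3 ages. Cd3e overlaps the antisense gene Gm48719, which had at most 7 reads in a sample. Whether the counting used strand is not given in the sources used here, and the part of these overlaps in the results was not tested.

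Among the alpha and beta chain genes, Trbc2 had the highest fold changes. Trbc2 (ENSMUSG00000076498, a constant region of the beta chain, chr6:41546730-41548352) was at 0.310, 0.249, 0.365 and 0.426 CPM at 2 months, 4.39, 2.24 and 2.32 CPM at 18 months and 1.23, 2.02 and 5.99 CPM at 24 months. Every older sample was above every young one. It rose 8.77-fold at 18 months (log2 3.13, SE 0.547, edgeR adjusted p = 0.0139) and 9.05-fold at 24 months (log2 3.18, SE 0.545, adjusted p = 0.00408). Trbc1 (ENSMUSG00000076490, the other beta constant region, chr6:41538218-41539881) was at 0.310, 0.155, 0.487 and 0.426 CPM at 2 months, 2.48, 1.55 and 1.33 CPM at 18 months and 0.970, 1.14 and 2.30 CPM at 24 months. It rose 5.19-fold (log2 2.38, SE 0.452, edgeR adjusted p = 0.0165) and 4.26-fold (log2 2.09, SE 0.450, adjusted p = 0.00856), with no overlap of older and young samples.

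Trac (ENSMUSG00000076928, the constant region of the alpha chain, chr14:54220521-54224206) behaved differently in level. The young samples lay close together at 1.31, 1.21, 1.34 and 1.37 CPM. At 18 months Trac was at 2.45, 3.56 and 2.72 CPM and at 24 months at 1.68, 1.96 and 3.58 CPM, so that the groups did not overlap although the step was small. It rose 2.22-fold at 18 months (log2 1.15, SE 0.294, edgeR adjusted p = 0.0358) and 1.84-fold at 24 months (log2 0.88, SE 0.293, adjusted p = 0.0417). This was the weakest call among the members that rose at 18 months. The 18 month call was lost in 6 of 10 fits that left out 1 sample, with an adjusted p of up to 0.121 (without any of the 2 month samples or 18 month replicates 2 or 3), and without the filter on low counts. The 24 month call of Trac was lost without that filter, with only the 2 ages in the fit, and in 7 of 10 fits that left out 1 sample, with an adjusted p of up to 0.182 without 24 month replicate 3 (log2 0.50). The 7 were each of the 2 month samples, 18 month replicate 3 and 24 month replicates 2 and 3.

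Of the coreceptors, Cd4 was by far the more counted. Cd4 (ENSMUSG00000023274, the coreceptor of helper and regulatory T cells, found in mice also on some dendritic cells, chr6:124864692-124888221 on the - strand) was at 2.62, 2.18, 3.94 and 2.56 CPM at 2 months. At 18 months it was at 11.3, 6.50 and 8.28 CPM, above all young samples. At 24 months it was at 3.88, 7.48 and 11.7 CPM, and replicate 1 lay just under the highest young sample. Cd4 rose 3.08-fold at 18 months (log2 1.62, SE 0.372, edgeR adjusted p = 0.0260) and 2.73-fold at 24 months (log2 1.45, SE 0.371, adjusted p = 0.0162). The 18 month call of Cd4 was held in 4 of 10 fits that left out 1 sample. It was lost without 2 month replicate 1, 2 or 4 or any 18 month sample, with an edgeR adjusted p of up to 0.0820. Without 24 month replicate 3 the 24 month change of Cd4 was 1.04 on the log2 scale with an adjusted p of 0.0588.

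Cd8a (ENSMUSG00000053977, the chain that CD8 dimers of both kinds share, also carried by some dendritic cells, chr6:71373427-71379173 on the + strand) was at 0.345, 0.124, 0.284 and 0.244 CPM at 2 months. At 18 months it was at 0.213, 0.946 and 0.530 CPM, and replicate 1 lay within the young range. The 18 month difference did not pass the test (log2 1.19, 95% interval -0.037 to 2.41, edgeR adjusted p = 0.180). At 24 months Cd8a was at 0.709, 0.484 and 1.13 CPM, all above the young samples, and was called higher (log2 1.63, SE 0.530, adjusted p = 0.0381). This call was held in 3 of 10 fits that left out 1 sample. It was lost without 18 month replicate 3, 24 month replicate 1, 24 month replicate 3 or any of the 2 month samples, with an adjusted p of up to 0.147, and also without the filter on low counts and with 11 libraries kept apart. Over all 10 fits its log2 fold change was 1.26 to 1.89. Whether the change of Cd8a differs between 18 and 24 months is the comparison of those ages, which gave a log2 difference of 0.45 (SE 0.548, adjusted p = 0.780).

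Cd8b1 (ENSMUSG00000053044, the beta chain of the CD8 dimer of conventional cytotoxic T cells, chr6:71322788-71337494 on the + strand) was at the edge of detection. It had 14, 2, 5 and 3 reads at 2 months, 2, 27 and 0 reads at 18 months and 9, 8 and 11 reads at 24 months. The 0 in 18 month replicate 3 stands in 14124639 reads and allows up to 3 reads, or 0.212 CPM of its total. Its log2 fold changes were 0.71 at 18 months (95% interval -1.50 to 2.91, edgeR adjusted p = 0.671) and 0.50 at 24 months (-1.71 to 2.70, adjusted p = 0.717). A change of the size seen in Cd3e would lie outside both intervals, and one of the size seen in Cd4 would lie inside both.

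**Figure D2:**
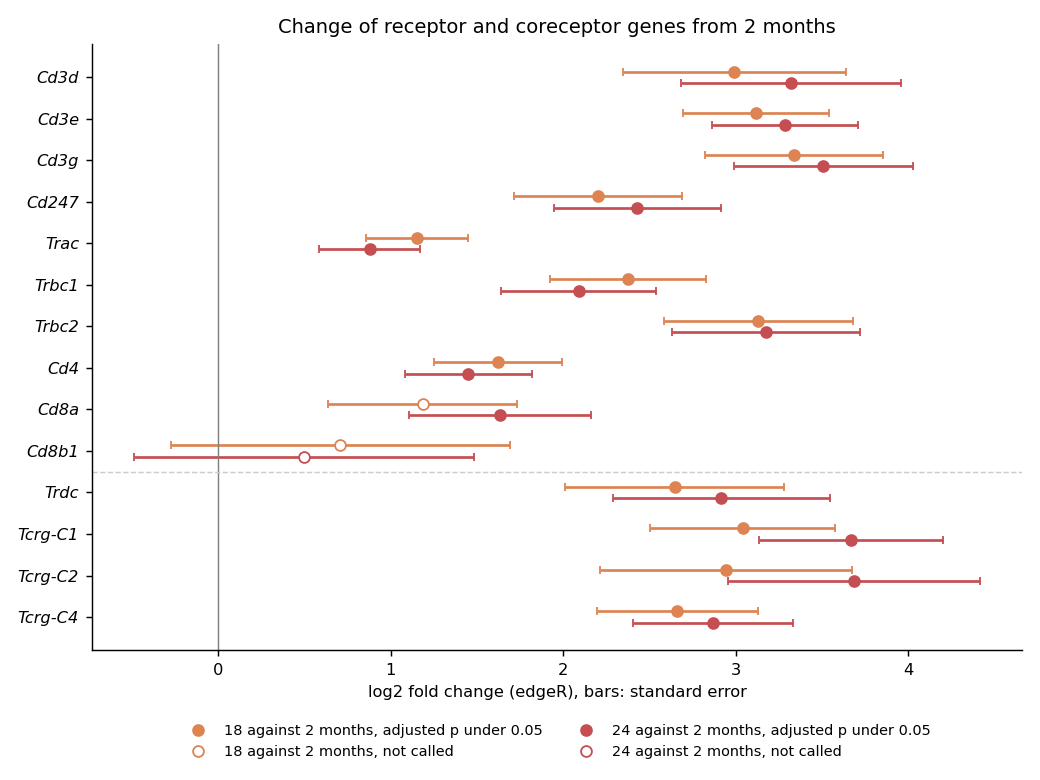
Log2 fold changes from edgeR for the 10 genes (above the dashed line) and for 4 constant genes of the gamma delta receptor (below it), at 18 and 24 months against 2 months, with bars of 1 standard error. Filled points passed an adjusted p of 0.05. Open points did not, and they are Cd8a at 18 months and Cd8b1 at both ages.

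The count of members called at 18 months depended on single samples, and the count at 24 months did less so. Without 2 month replicate 1, 2 members (Cd3e and Cd3g) were higher at 18 months. Without 2 month replicate 2, 2 month replicate 4, 18 month replicate 2 or 18 month replicate 3, 4 members were higher, which were Cd3e, Cd3g, Trbc1 and Trbc2. The number of all genes higher at 18 months fell in these fits as well, from 1228 to 220, 365, 413, 530 and 267. At 24 months 6 to 9 members were called when 1 sample was left out, with the lowest count without 24 month replicate 3. Without that sample 2475 of 20803 tested genes were higher at 24 months, against 3906 of 20331 with all samples. Cd3e and Cd3g were higher than at 2 months at both older ages in all 10 fits that left out 1 sample and under all 9 other alternatives.

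Between 24 and 18 months the members' log2 differences ran from -0.28 (Trbc1) to 0.45 (Cd8a), with adjusted p-values from 0.761 upward in edgeR's test. The interval of this difference was -0.77 to 1.11 for Cd3e, -0.98 to 1.32 for Cd3g and -1.05 to 0.71 for Cd4, so changes of up to about these sizes could not be told from none. The spread at 24 months was wide. The 10 members summed to 15.5, 25.6 and 52.7 CPM in 24 month replicates 1 to 3, to 36.6, 27.6 and 28.4 CPM in the 18 month samples and to 7.10, 5.41, 8.98 and 6.18 CPM in the young samples.

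Levels were compared between genes only after division by annotated exon length, as CPM per kb. At 2 months Trac had the highest mean at 1.40 ± 0.0733 CPM per kb (SD, n = 4), above Cd4 at 0.700 ± 0.191, and the ranges of these neighbours did not overlap (lowest Trac 1.30, highest Cd4 0.977). Trbc2 at 0.488 ± 0.110 and Trbc1 at 0.460 ± 0.195 followed and did not differ beyond their spread. Cd3g (0.194 ± 0.0851), Cd8b1 (0.141 ± 0.129), Cd3e (0.122 ± 0.0317), Cd3d (0.0880 ± 0.0582), Cd8a (0.0685 ± 0.0256) and Cd247 (0.0659 ± 0.0148) came next, each within the spread of its neighbour. At 18 months Trbc2 came first with 4.31 ± 1.77 CPM per kb (n = 3), ahead of Trac (3.11 ± 0.624), Trbc1 (2.38 ± 0.819), Cd4 (2.16 ± 0.603) and Cd3g (1.95 ± 0.264), with overlapping ranges between each pair of neighbours. Cd3e (1.07 ± 0.202), Cd3d (0.694 ± 0.279) and Cd247 (0.304 ± 0.0375) were lower, and Cd8b1 (0.207 ± 0.319) and Cd8a (0.155 ± 0.101) were lowest. The order at 24 months also began with Trbc2 (4.45 ± 3.69) and Trac (2.57 ± 1.09) and ended with Cd8a (0.213 ± 0.0908) and Cd8b1 (0.199 ± 0.0394). Length correction does not account for reads that could not be placed between Trbc1 and Trbc2.

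**Figure D3:**
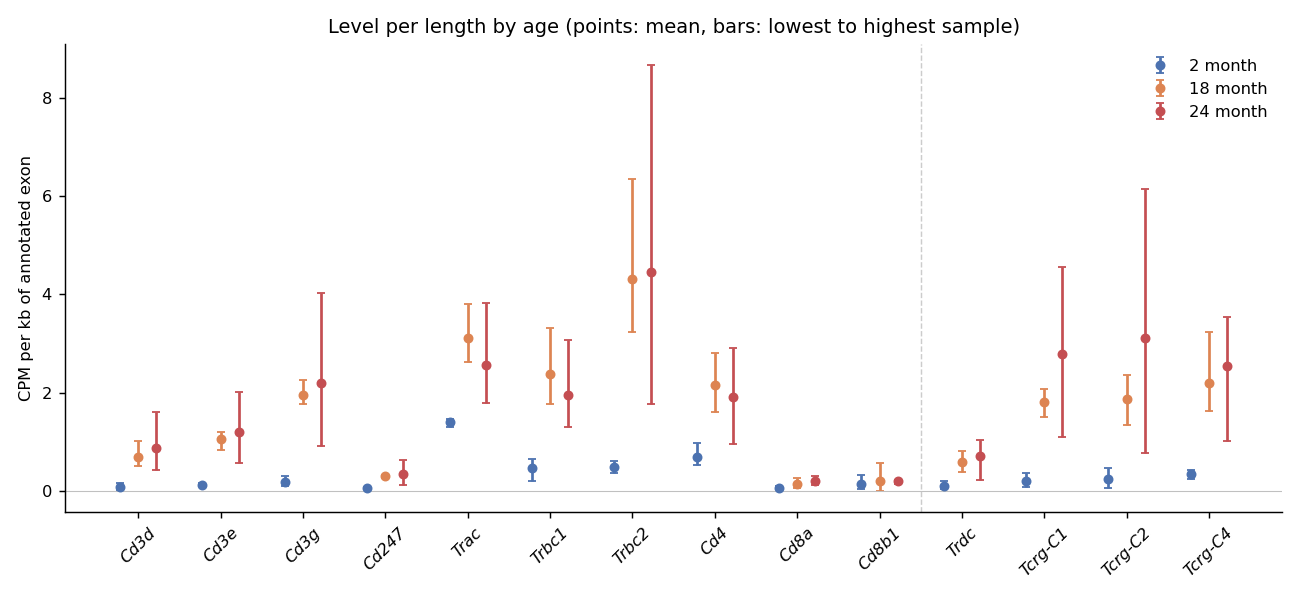
Levels of the 10 genes (left of the dashed line) and of 4 gamma delta constant genes (right) in CPM per kb of annotated exon, with the mean of each age as a point and the lowest to highest sample as a bar. Trac stands above the other members at 2 months, and Trbc2 has the highest mean at 18 and 24 months with wide bars.

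The balance between members was examined within each sample as a ratio of counts, which needs no scaling between libraries. The 6 older samples were compared with the 4 young ones by an exact two-sided permutation test over samples, adjusted over 5 ratios, for which the smallest possible p is 0.00952. The test counts the 6 older samples as independent, although same-numbered samples of 18 and 24 months deviated together over all genes (correlations 0.398, 0.283 and 0.148), which no p-value of these ratios takes into account. Summed CD3 chain counts over Ptprc (CD45, carried by all leukocytes) were 0.120, 0.118, 0.105 and 0.061 at 2 months, 0.209, 0.395 and 0.302 at 18 months and 0.128, 0.284 and 0.445 at 24 months. The groups did not overlap, although 24 month replicate 1 lay close to the young samples. The mean log2 ratio was higher by 1.48 in the older samples (-1.88 ± 0.654, n = 6, against -3.36 ± 0.463, n = 4), which is 2.80-fold, with p = 0.00952 and adjusted p = 0.0476 by the exact permutation test. Ptprc itself rose 3.32-fold at 18 months and 3.51-fold at 24 months (log2 1.73, SE 0.328, edgeR adjusted p = 0.0166, and log2 1.81, SE 0.328, adjusted p = 0.00496).

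The ratio of Cd8a to Cd4 gave no such difference. It was 0.137, 0.0638, 0.0769 and 0.101 at 2 months, 0.0203, 0.148 and 0.0677 at 18 months and 0.187, 0.0664 and 0.0977 at 24 months, so the older samples spanned the young ones on both sides. The mean log2 difference was -0.20 (p = 0.83, also after adjustment, exact permutation test), and the direction turned when 18 month replicate 1 was left out (0.20) or 2 month replicate 1 (0.0023). In 18 month replicate 1, Cd8a made up 6 of 325 reads of the coreceptors Cd8a and Cd4, or 1.85% (Wilson 95% interval 0.849% to 3.97%), and in 24 month replicate 1 it made up 19 of 123, or 15.4% (10.1% to 22.9%). These intervals cover counting error only, since reads without molecular identifiers are not independent molecules. Cd8b1 over Cd8a was lower by 1.05 on the log2 scale in the older samples, with overlapping groups (p = 0.181 and adjusted p = 0.226, exact permutation test).

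Trbc1 over Trbc2 was 1.00, 0.647, 1.32 and 1.00 at 2 months, 0.566, 0.692 and 0.577 at 18 months and 0.791, 0.566 and 0.385 at 24 months. The log2 ratio was lower by 0.72 in the older samples (p = 0.0286 and adjusted p = 0.0476, exact permutation test), with overlap through 2 month replicate 2. In the young samples the ratio rests on 13 to 28 reads of both genes together, and on the placement of reads that fit either gene.

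Trdc encodes the constant region of the delta chain, and its counts were set over those of Trac alone. The ratio was 0.273, 0.139, 0.582 and 0.165 at 2 months, 1.30, 0.427 and 0.807 at 18 months and 0.538, 1.71 and 1.13 at 24 months. The older samples were higher by 1.84 on the log2 scale, which is 3.58-fold (p = 0.0286 and adjusted p = 0.0476, exact permutation test), with overlap through 2 month replicate 3. This ratio rests on Trac, the alpha beta gene with the lowest fold changes. The log2 fold changes of Trbc2 (3.13 and 3.18) were not below those of Trdc (2.65 and 2.92), and Trdc over Trbc2 was not tested. When 1 sample was left out, none of the 3 ratios that passed did so any more, with adjusted p-values from 0.0529 to 0.119, although each kept its direction. Leaving out a sample also raises the smallest p that the test allows. Single ages against 2 months could not pass, since 3 samples against 4 allow no p under 0.0571 and 3 against 3 none under 0.1.

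**Figure D4:**
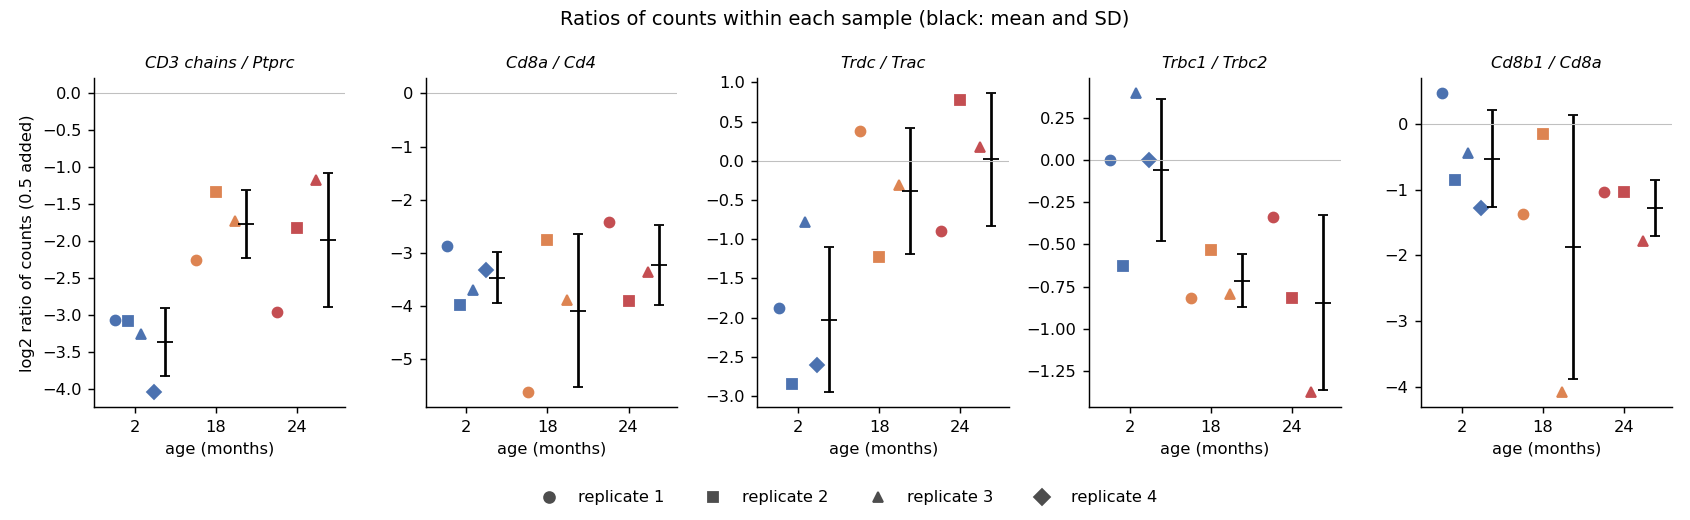
Log2 ratios of counts within each sample, with 0.5 added to each count, for the 5 ratios against age in months, with 1 symbol per replicate and the mean and SD of each age in black. The ratio of CD3 chains to Ptprc is above the young samples in all 6 older ones, and the ratio of Cd8a to Cd4 spreads around the young samples on both sides.

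The constant genes of the gamma delta receptor rose together with the members. Of the 5 that were found, 4 were tested, and all 4 were higher at 18 months (median log2 2.80) and at 24 months (median 3.29). Of all tested genes, 6.04% and 19.2% were higher at these ages. Tcrg-C1 rose by log2 3.04 (SE 0.536, edgeR adjusted p = 0.0143) and 3.67 (SE 0.534, adjusted p = 0.00253), Tcrg-C4 by 2.66 (SE 0.467) and 2.87 (SE 0.465), and Tcrg-C2 by 2.94 (SE 0.731) and 3.69 (SE 0.731). Trdc was at 0.345, 0.155, 0.772 and 0.213 CPM at 2 months, 3.19, 1.51 and 2.19 CPM at 18 months and 0.896, 3.36 and 4.04 CPM at 24 months, with log2 fold changes of 2.65 (SE 0.633, adjusted p = 0.0297) and 2.92 (SE 0.631, adjusted p = 0.00887). The lowest older sample of Trdc was above the highest young one. Without 2 month replicate 1 edgeR called 0 of these genes at 18 months, although 4 had an unadjusted p under 0.05. With all samples, 6084 of 20331 tested genes had such a p at 18 months. Without 18 month replicate 3 the count of gamma delta genes called was 1. It was 2 without 2 month replicate 2, 2 month replicate 4, 18 month replicate 1 or 18 month replicate 2. At 24 months 4 or 5 were called in each of these fits. Tcrg-C1 shares 17.9% of its 50-base windows with Tcrg-C2 and 22.2% with Tcrg-C3, so their single levels are uncertain. Trdc has exons that overlap Gm43434 and Trdv5 on the other strand, which had at most 5 and 9 reads in a sample.

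Variable segments were counted thinly. Reads on all Trbv segments (the variable part of beta chains) numbered 9, 9, 6 and 3 at 2 months, 47, 43 and 18 at 18 months and 25, 21 and 122 at 24 months. Over an age, 9 different Trbv segments were seen at 2 months, 16 at 18 months and 18 at 24 months, counts that grow with the number of reads. Each older sample was above each young one for Trbv in CPM (0.598 to 3.55 against 0.0913 to 0.310), a difference that was not tested. The most counted at 24 months were Trbv13-3 with 36 of 168 Trbv reads, Trbv1 with 28 and Trbv13-2 with 24. They came mostly from a single sample: 24 month replicate 3 held 33 of the Trbv13-3 reads and 26 of the Trbv1 reads, but 12 of the Trbv13-2 reads. At 18 months Trbv1, Trbv13-1 and Trbv13-2 had 16 reads each of 108. Alpha chain segments (Trav) had 2 to 6 reads in a young sample, 3 to 18 at 18 months and 2 to 16 at 24 months, and 24 month replicate 1 (0.0746 CPM) was below all young samples. Gamma segments named Tcrg-V had 1 to 3, 7 to 30 and 13 to 66 reads at the 3 ages, and delta segments (Trdv) 3 to 6, 8 to 18 and 6 to 45, with 24 month replicate 1 (0.224 CPM) below 2 month replicate 3 (0.244 CPM). With so few reads, the order of segments within an age was not tested.

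Downstream of the receptor, 25 of 27 listed genes of proximal signalling were tested. At 18 months 8 were higher and none was lower (median log2 0.97), and at 24 months 12 were higher and 1 was lower (median 1.24). Of all tested genes, 6.04% and 19.2% were higher and 5.51% and 15.8% were lower at these ages. Ptpn22, a phosphatase that restrains Lck, rose by 1.19 (SE 0.285, edgeR adjusted p = 0.0293) and 1.62 (SE 0.285, adjusted p = 0.00445) on the log2 scale. The 1 gene called lower was Cd28, the costimulatory receptor, with a log2 fold change of -4.04 at 24 months (SE 1.16, adjusted p = 0.0250). At 2 months Cd28 was at 8.08 to 81.4 CPM, while the 10 members together summed to 5.41 to 8.98 CPM. The cells that the Cd28 RNA came from were not identified, so a change of Cd28 within T cells was not tested. DESeq2 also called 1 gene lower, and limma-voom called none. Of all 20331 tested genes they called 4041 and 4700 lower at 24 months. No gene of the list was called lower without 2 month replicate 1 or without any 1 of the 24 month samples. Several listed genes, such as Ptpn22, are also expressed in B cells and other leukocytes. The 18 month count was 0 without 2 month replicate 1, with 13 genes at an unadjusted p under 0.05. With all samples, 6084 of 20331 tested genes had such a p in edgeR at 18 months. The count of signalling genes was 1 without 2 month replicate 2, 2 month replicate 4 or 18 month replicate 3. It was 3 without 18 month replicate 1, 4 without 18 month replicate 2 and 13 with DESeq2. At 18 months DESeq2 called 2113 of all 20331 tested genes higher. The 24 month count was 8 to 14 when 1 sample was left out, with 8 without 24 month replicate 3.

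Genes that mark the lineage and state of T cells were described by list. At 2 months the transcription factors summed to 295 to 412 CPM and the naive and recirculating genes to 89.5 to 110 CPM. Effector and resident genes summed to 115 to 118 CPM and regulatory genes to 13.5 to 17.2 CPM. The 10 members summed to 5.41 to 8.98 CPM at that age. The cells that the RNA of the listed genes came from were not identified. Of 11 transcription factors of the T lineage, 4 were higher at 18 months and 6 at 24 months. Bcl11b, which fixes T cell identity, rose by 2.20 (SE 0.371, edgeR adjusted p = 0.0134) and 2.81 (SE 0.372, adjusted p = 0.00209). Of 7 genes of naive and recirculating T cells, 1 and 2 were higher, led by Il7r, the interleukin 7 receptor alpha chain, with 3.22 (SE 0.541) and 3.68 (SE 0.547). Of 10 tested genes of effector and resident T cells, 6 and 7 were higher. Cxcr6, a chemokine receptor of resident T cells, rose by 3.00 (SE 0.483, edgeR adjusted p = 0.0127) and 3.25 (SE 0.485, adjusted p = 0.00274), and Eomes, a factor of cytotoxic cells, by 2.03 (SE 0.554) and 3.65 (SE 0.541). Of 4 tested genes of regulatory T cells 2 were higher at each age, while Foxp3, the factor that defines these cells, was not called (log2 0.36, adjusted p = 0.707, and log2 0.94, adjusted p = 0.187). No gene of these lists was lower at either age. Of all tested genes, 6.04% were higher at 18 months and 19.2% at 24 months, and 5.51% and 15.8% were lower. Beside these shares, a count such as 2 of 7 naive and recirculating genes at 24 months says little about that list.

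Several of these 18 month counts rested on single samples. The transcription factors called fell from 4 to 1 without 2 month replicate 1, 2 month replicate 2 or 18 month replicate 3, and to 2 without 2 month replicate 4 or 18 month replicate 2. Effector and resident genes fell from 6 to 2 without 2 month replicate 1, 2 or 4 and to 3 without 18 month replicate 2 or 3. Regulatory genes fell from 2 to 0 without any 2 month sample or 18 month replicate 2, and to 1 without 18 month replicate 1 or 3. At 24 months they fell to 0 without 2 month replicate 3 and to 1 without another 2 month sample or 24 month replicate 2 or 3. Naive and recirculating genes called at 18 months numbered 2 without 18 month replicate 1. The 18 month calls of Eomes and Ptpn22 were each lost without 2 month replicate 1, 2 or 4 or any 18 month sample, while Bcl11b, Il7r and Cxcr6 were called at both ages in all 10 of these fits.

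Of the markers of other cell types, pan leukocyte, macrophage, dendritic cell and oviduct genes had higher calls at both ages, and ovary genes lower calls. The edgeR counts below stand beside 6.04% of all tested genes higher and 5.51% lower at 18 months. At 24 months these shares were 19.2% and 15.8%. An unadjusted edgeR p under 0.05 was found for 6084 of 20331 tested genes at 18 months and for 9504 at 24 months. Of the same 20331 genes, DESeq2 called 2113 higher at 18 months and 4298 at 24 months. For limma-voom these counts were 1566 and 5106. All 6 pan leukocyte genes were higher at both ages (medians 1.54 and 1.72), and their summed level was 49.8 to 85.0 CPM at 2 months, 126 to 247 CPM at 18 months and 185 to 260 CPM at 24 months. Macrophage genes were higher in 7 and 8 of 8 (medians 1.13 and 1.17; summed 242 to 309 CPM, then 532 to 706, then 658 to 703), and dendritic cell genes in 3 and 4 of 7 (medians 1.66 and 1.96; summed 54.8 to 59.5, then 95.3 to 101, then 81.9 to 118). B cell genes were called in none and 2 of 6 by edgeR, with 2 and 5 at an unadjusted p under 0.05, in 1 and 3 by DESeq2 and in 1 and 4 by limma-voom (summed 4.51 to 9.42, 5.68 to 16.3 and 12.5 to 23.6 CPM). NK cells also carry Cd247 and some CD3 transcripts. Of 7 NK cell genes edgeR called none at either age (medians 0.46 and 0.69), with 1 and 2 at an unadjusted p under 0.05, DESeq2 called 0 and 1, and limma-voom with quality weights called 1 and 6 higher. Their sums overlapped between ages at 1.89 to 10.2, 4.76 to 8.93 and 5.61 to 10.6 CPM. Of 5 thymocyte genes 1, Cd1d1, passed the count filter, with an unadjusted p over 0.05 in edgeR at both ages and a call by limma-voom at 24 months. Rag2, needed to rearrange receptor genes, had 0 reads in every sample except 1 read in 24 month replicate 3. Oviduct epithelium genes were higher in 3 and 5 of 5 tested, with sums of 10.4 to 21.3, 59.5 to 193 and 45.3 to 907 CPM. The 907 CPM belonged to 24 month replicate 3, the sample with the highest member sum, while the highest oviduct sum at 18 months was in replicate 2, which had the lowest member sum of that age. Ovary genes were lower in 4 and 5 of 11, with sums of 10509 to 23395, 7665 to 12297 and 2991 to 6324 CPM. Of 4 tested erythroid genes edgeR and DESeq2 called 0 at both ages, with 0 at an unadjusted p under 0.05, as limma-voom did with 2 and 0 unadjusted. Of 2 tested adipocyte genes edgeR called 0 at 18 months, with 1 at an unadjusted p under 0.05 and 1 called by DESeq2, and 1 was higher at 24 months. The part of these cell types in the members' change was not tested.

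The marker counts at 18 months also rested on single samples. Pan leukocyte genes fell from 6 to 2 without 2 month replicate 1 or 18 month replicate 3, and macrophage genes from 7 to 4 without 2 month replicate 1. Dendritic cell genes fell from 3 to 0 without 2 month replicate 1 and to 1 without 2 month replicate 2, 2 month replicate 4 or 18 month replicate 3, and 6 were called without 24 month replicate 1. Oviduct genes fell from 3 to 0 without 2 month replicate 1, 2 month replicate 4, 18 month replicate 2 or 18 month replicate 3, and to 1 without 2 month replicate 2. Ovary genes called lower fell from 4 to 0 without 2 month replicate 1, 2 month replicate 2, 18 month replicate 2 or 18 month replicate 3, and to 1 without 2 month replicate 4. At 24 months all 6 pan leukocyte genes, all 8 macrophage genes and 5 ovary genes were called in each of the 10 fits, and oviduct genes fell from 5 to 3 without 24 month replicate 3. Of the NK cell genes 1 was called at 18 months without 2 month replicate 3, and at 24 months 4 were called without that sample and 1 without 18 month replicate 1 or 24 month replicate 3. B cell genes called numbered 1 at 18 months without 2 month replicate 3 or 18 month replicate 2, and 1 at 24 months without 2 month replicate 1, 2 or 4 or 24 month replicate 3. Cd1d1 was called at 24 months without 2 month replicate 3. Adipocyte genes called numbered 1 at 18 months without 18 month replicate 1, 24 month replicate 1 or 24 month replicate 3. At 24 months their count was 0 without any 2 month sample, 18 month replicate 3, 24 month replicate 1 or 24 month replicate 2, and 2 without 24 month replicate 3.

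The genes most like the CD3 chains over the samples were ranked by Pearson's r of log2 CPM with the mean z-score of Cd3d, Cd3e and Cd3g, over 10 samples that share the 3 ages, among 15689 genes. Outside the members the top 8 were Cxcr6 (0.990), Ighg2c (0.989), Igkc (0.986), Cd226 (0.984), Slpi (0.984), Tbc1d10c (0.981), Jchain (0.980) and Itgal (0.979). Ighg2c, Igkc and Jchain are genes of antibody-secreting cells, Cd226 is an activating receptor and Itgal a leukocyte integrin chain. Among the members r was 0.968 for Cd247, 0.966 for Trbc2, 0.951 for Cd4, 0.934 for Trbc1, 0.884 for Trac, 0.673 for Cd8a and 0.093 for Cd8b1. When each age's mean was subtracted first, r was 0.908 for Cd4, 0.889 for Cd247, 0.790 for Trbc2, 0.643 for Trbc1, 0.628 for Trac, 0.141 for Cd8a and -0.0075 for Cd8b1. The 8 other genes with the highest values after that step were Ighv1-18 (0.963), Ptprcap (0.957), Lrrc56 (0.956), Fam107a (0.955), Dmac2 (0.948), Spib (0.947), Mettl7a1 (0.944) and Igkc (0.942). These values pool the deviations of all 3 ages, in which Cd4 and Cd247 had the highest r of the members outside the CD3 chains. Cd8a and Cd8b1 had values near 0. Single ages could differ from the pooled value. At 18 months Cd247 was highest in replicate 2 (1.77 CPM), where Cd3e (3.41 CPM) and Cd3g (5.80 CPM) were lowest. These correlations are descriptions of 10 samples, in which 24 month replicate 3 lies far from the others.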

How the data were processed

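RNA of whole mouse ovary was extracted with Trizol and cleaned on a column with DNase, and a stranded mRNA kit from Illumina was used for the libraries, per the labels' protocols. The authors deposited raw counts per gene and library. FastQC, cutadapt, STAR, HTSeq and mm10 are named in the submitters' processing notes. Their versions, the annotation, the strand setting and the handling of reads with several placements were not given in the sources used here.

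From these counts, genes were filtered with filterByExpr and scaled by TMM. They were tested with edgeR 4.0.16 (quasi-likelihood F-test, robust, two-sided, R 4.3.3) with the 3 ages in 1 model and Benjamini-Hochberg adjustment over 20331 genes. The model had 7 residual degrees of freedom and a common biological variation of 0.32, and the procedure was tested on simulated data. Ratios of counts, with 0.5 added, were compared by exact permutation. Exon lengths came from GENCODE M21, where all 10 members had the coordinates of the table.

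The members, gene lists and tests were chosen with earlier results of these data known, so counts over them are descriptions. Named genes were the members, up to 3 genes of each T cell list and 2 of the others with the smallest adjusted p, and the 8 genes most like the CD3 chains by each measure. Eomes, Cxcr6 and the other named list genes follow that rule, while Foxp3, Cd28, Rag2, Tcf7, Dntt, Trdc and Ptprc were named after their values were seen or as parts of a ratio. Some genes that the rule would name are not reported here. Intervals are at 95%.

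Same-numbered samples of 18 and 24 months deviated together (correlations 0.398, 0.283 and 0.148), although the labels do not say what they share and a different-numbered pair also gave 0.144. The reported tests did not use these numbers, and a replicate block was an alternative. Alternatives were DESeq2 1.42.0, limma-voom (3.58.1), other scaling and filters, that block, only the ages compared, 11 separate libraries and leaving out each sample. Counts of the other gene lists under them were added after the data were examined.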

Additional observations from a re-analysis of the deposited data

How the results depend on the processing

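Leaving out 1 sample gave 2 to 8 members higher at 18 months. The replicate block gave 4 there, losing Cd3d, Cd247, Cd4 and Trac, and 7 in place of 9 at 24 months, losing Trac and Cd8a. Under the block 581 of 20331 tested genes were higher at 18 months, against 1228 in the main fit. At 24 months 2718 were higher, against 3906. The block changed no call of a member between 24 and 18 months, where none was made. Same-numbered samples of the other comparisons did not deviate together (0.074, -0.058 and -0.054 for 18 against 2 months, -0.028, -0.076 and -0.109 for 24 against 2 months). With every library thinned to the smallest total, the log2 difference of older from young samples was 1.07 for CD3 chains over Ptprc, -0.68 for Trbc1 over Trbc2 and 1.88 for Trdc over Trac (each adjusted p = 0.0635, exact permutation test), and 0.091 for Cd8a over Cd4. Leaving out 1 sample gave 1.26 to 1.70, -0.91 to -0.57, 1.57 to 2.26 and -0.44 to 0.20 for these ratios.

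Directions turned only where no call was made. For Cd8b1 at 18 against 2 months limma-voom gave -0.14 and leaving out 1 sample gave -2.12 to 1.52. Between 24 and 18 months limma-voom gave -0.0093 for Cd3d, -0.028 for Cd3e, -0.17 for Cd3g, 0.91 for Cd8b1 and -0.35 for Trbc2, and the replicate block gave -0.050 for Cd3g, 0.034 for Cd8b1 and -0.16 for Trbc2. Leaving out 1 sample moved that difference over -0.42 to 0.71 for Cd3d, -0.41 to 0.51 for Cd3e, -0.60 to 0.55 for Cd3g, -0.44 to 0.64 for Cd247, -0.59 to 0.16 for Cd4, -0.69 to 2.61 for Cd8b1, -0.75 to 0.026 for Trbc1 and -0.86 to 0.43 for Trbc2. The cause was not tested.

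With library totals alone as scaling, the higher and lower calls over all genes were 1326 and 662 at 18 months and 5048 and 1869 at 24 months, and the median of all genes rose to 0.097 and 0.22, while 8 and 9 members were higher as before. The block left 1 of the gamma delta genes, 1 of the signalling genes, 1 of the transcription factors, 3 effector genes, 2 ovary genes and 0 regulatory, dendritic and oviduct genes called at 18 months, and 0 regulatory, 5 B cell, 2 oviduct and 0 adipocyte genes at 24 months. Over all alternatives 1514 fold changes kept their direction and side of the threshold, 137 lost the threshold, 30 gained it and 21 turned. Read counts limit Cd8a, Cd8b1 and the variable segments most.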

Other observations

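Values of 3 further genes, chosen after they were seen, stood apart from the members. Cd28 had 2360, 260, 712 and 681 reads at 2 months, 2714, 1182 and 34 at 18 months and 59, 80 and 63 at 24 months. In CPM the young samples ran from 8.08 to 81.4, and 18 month replicate 3 and the 24 month samples lay lowest, between 1.83 and 2.28. The 10 members together summed to 5.41 to 8.98 CPM in the young samples. The cells that the Cd28 RNA came from were not identified. Dntt, the enzyme that adds bases at receptor gene joints in developing lymphocytes, had 8, 8, 3 and 7 reads in the young samples, 0 in each 18 month sample and 0, 1 and 1 at 24 months. Tcf7, a factor of naive T cells, was at 46.2 ± 11.2 CPM (SD, n = 4), 47.4 ± 8.54 CPM (n = 3) and 52.3 ± 8.20 CPM (n = 3) at the 3 ages, with no call at 18 months (log2 0.037, edgeR adjusted p = 0.926) or 24 months (log2 0.18, adjusted p = 0.521).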
